A study of Homo sapiens with 9 samples.

Results

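The insulin-like growth factor (IGF) axis was followed in 3 groups of HEK293 cells (an embryonic kidney line of human origin), with and without knock-down of SmcHD1, a chromatin protein of the SMC family that takes part in X-chromosome inactivation and in the silencing of some imprinted and clustered genes. Its members were the ligands IGF1 and IGF2, the receptors IGF1R, INSR and IGF2R, and the binding proteins IGFBP2, IGFBP3, IGFBP4, IGFBP5 and IGFBP6. They were listed by name, with earlier results of these data known. All probes whose RefSeq accession on the array maps to these 10 genes were taken, 12 of the 42405 probes of the array. Of these, 9 probes of 9 genes gave enough signal to be tested, among 32276 tested probes in all. The second probes of IGF1 and IGF2 and the single probe of IGFBP4 did not. The array holds 19483 genes named through such accessions.

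KD3 cells carried shRNA 3 and KD4 cells shRNA 4, both against SmcHD1, and the control cells (CTL) carried the NC5 shRNA. All 3 groups had received their hairpin from a retrovirus made with the pQCXIP-GFP vector, had been selected with puromycin and were grown in DMEM with serum, so that infection, GFP and selection were shared by the control. The cells were stably infected populations, 1 hairpin per group, and each group was measured on 3 one-color arrays. The methods call these biological triplicates without saying whether they came from separate infections, and the p-values measure the spread between these arrays. In RNA from whole cultures, fewer cells that express a gene and less RNA per cell cannot be told apart.

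IGF1 and IGF2 are secreted growth factors that signal through the tyrosine kinase receptor IGF1R, and IGF2 also through the insulin receptor INSR. IGF2R, the cation-independent mannose 6-phosphate receptor, takes up IGF2 and delivers it to lysosomes without signaling through a kinase. The IGF binding proteins hold the ligands outside the cell and either prolong or block their access to the receptors, and IGFBP6 prefers IGF2. In fetal kidney IGF2 is the prominent ligand, and its gene is imprinted and normally read from the paternal copy, next to the maternally expressed H19.

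The 3 hairpins define the groups, and each is shown as the labels give it for all 3 arrays of its group, as DNA of 68 bases from 5′ to 3′. The loop of 9 bases is in capitals, and all other bases, the stems among them, are in lower case.
shRNA 3 (KD3): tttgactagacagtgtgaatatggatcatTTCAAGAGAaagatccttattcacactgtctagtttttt
shRNA 4 (KD4): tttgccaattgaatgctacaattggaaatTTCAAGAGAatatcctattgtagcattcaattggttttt
NC5 (CTL): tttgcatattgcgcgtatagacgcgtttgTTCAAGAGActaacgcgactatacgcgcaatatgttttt

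The promoters of the 3 members with the largest differences that the promoter table holds, IGFBP6, IGFBP3 and INSR, are shown as RefSeq places them in GRCh38.p14, as the 250 bases before the gene's start, 5′ to 3′ on the strand of the gene. Capitals mark GGGCGG or its reverse complement CCGCCC, the letters of a GC box, with overlapping copies counted. A promoter was found for 9 of the 10 members, and IGF2 was not among them.
IGFBP6, chr12:53097417-53097666, plus strand: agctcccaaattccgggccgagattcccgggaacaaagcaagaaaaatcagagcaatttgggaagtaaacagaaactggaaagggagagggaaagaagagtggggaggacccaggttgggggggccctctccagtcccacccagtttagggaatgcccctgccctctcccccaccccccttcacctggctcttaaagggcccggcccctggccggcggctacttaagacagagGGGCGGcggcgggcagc
IGFBP3, chr7:45921273-45921522, minus strand: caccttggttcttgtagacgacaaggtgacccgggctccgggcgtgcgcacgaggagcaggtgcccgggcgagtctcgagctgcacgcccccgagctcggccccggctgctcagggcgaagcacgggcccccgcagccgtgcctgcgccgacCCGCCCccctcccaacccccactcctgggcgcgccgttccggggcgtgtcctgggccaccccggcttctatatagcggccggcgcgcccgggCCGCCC
INSR, chr19:7294415-7294664, minus strand: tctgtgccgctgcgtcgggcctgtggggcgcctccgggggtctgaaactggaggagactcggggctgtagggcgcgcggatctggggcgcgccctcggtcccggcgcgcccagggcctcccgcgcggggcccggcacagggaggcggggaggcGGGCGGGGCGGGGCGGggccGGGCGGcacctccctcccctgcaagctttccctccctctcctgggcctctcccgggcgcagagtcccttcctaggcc
CpG dinucleotides, the sites of DNA methylation, numbered 9 in the IGFBP6 window, 32 in that of IGFBP3 and 28 in that of INSR, where the median of 35114 promoters was 11. GGGCGG was found on either strand in 42.6% of all promoters, 1 time in IGFBP6, 2 times in IGFBP3 and 4 times in INSR. TATAAA (10.7% of all promoters) and CCAAT (32.0%) were in none of the 3 windows on either strand. The promoters of IGF1R and IGF2R held 48 and 33 CpG dinucleotides and that of IGFBP5 held 8. These letters were read from the reference and not measured in the cells, and no methylation or binding at these promoters was analysed here.

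Before the members, the knock-down itself was checked. The brightest probe of SMCHD1 lay on all 6 knock-down arrays below the lowest CTL array, at most 10.40 against at least 11.20 on the log2 scale (p = 0.0119 by an exact permutation test, two-sided, which cannot go lower with 6 arrays against 3). Its signal was lower by a fitted log2 difference of -0.97 for KD3 and -1.53 for KD4. On single arrays 75.1% to 79.8% of probes passed the scanner's background flag and no spot was saturated, and 3 arrays per group set the precision reached here. The 7 HEK293 markers examined, among them VIM, KRT18 and NEFL, were well above background on all 9 arrays, but 2 of them, PAX2 and NEFM, were called lower in both knock-downs. PAX2, a transcription factor of the developing kidney, fell by a fitted -2.41 with shRNA 3 and -2.65 with shRNA 4 on the log2 scale on its brighter probe, while its other tested probe differed from CTL by -0.01 and 0.06. Of 15 markers of other cell types, 9 were well above background on every array and 4 on none (PECAM1, COL3A1 and DBH among them), and in the limma fit 0 of the 9 tested passed the adjusted p in either knock-down, and 0 an unadjusted p under 0.05. Their summed level lay between 9.92 and 10.08 in CTL, between 9.95 and 10.06 in KD3 and at 10.08 to 10.09 in KD4 on the log2 scale. Since all groups are 1 cell line, a flag passed by these markers does not by itself show that a gene is expressed. This limit also holds for the dim probes below. The part that other cells may have in the results was not tested.

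Every value below is a quantile normalized log2 signal, the mean of the replicate spots of a probe on 1 array, and is comparable between arrays for the same probe but not between probes. Differences are log2 fold changes from a single limma fit over the 9 arrays. Rose and fell are written of an adjusted p under 0.05, and a gene was called when in addition its fold was at least 1.8, with the Benjamini-Hochberg adjustment taken over all tested probes. Of the 9 tested members, 2 were called in KD3, IGF2 and IGFBP6, both lower, where 3.32% of all tested probes were called in either direction and 2.20% lower. In KD4, 1 member was called, IGFBP6, again lower, where 4.60% of all tested probes were called and 3.19% lower. IGFBP6 was thus called lower in both, as were 1.65% of all tested probes. An unadjusted limma p under 0.05 was reached by 8 lower and 0 higher members in KD3. The share of all tested probes at that threshold is not given here, and it cannot be smaller than the share by the adjusted p. By the adjusted p alone, 5 members were lower and 0 higher in KD3, beside 10.4% and 9.64% of all tested probes, and 7 were lower and 1, IGFBP3, higher in KD4, beside 14.8% and 13.6%. The shares over the 16082 tested genes, on their brightest probes, were higher. In either direction 4.43% of these genes were called in KD3 and 5.59% in KD4, and 25.2% and 34.5% passed the adjusted p alone. Without KD4 replicate 1, or without CTL replicate 3, 4 were lower in KD4, and with the methods' t-test after adjustment 2 were lower in each knock-down. In the limma fit over all arrays the same 5 were lower in both, IGF2, IGF1R, INSR, IGFBP5 and IGFBP6, where 8.42% of all probes were. Both knock-downs share the CTL arrays, so that their values are set side by side and are not independent. The arrays of KD3 and CTL did not overlap for 8 of the 9 members, IGF1 being the exception, and those of KD4 and CTL did not overlap for any of the 9, where 36.0% and 44.9% of all tested probes did not overlap. Over the 9 members the median log2 fold change was -0.40 for KD3 and -0.42 for KD4, beside 0.01 and 0.04 over all tested probes.

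**Figure D1:**
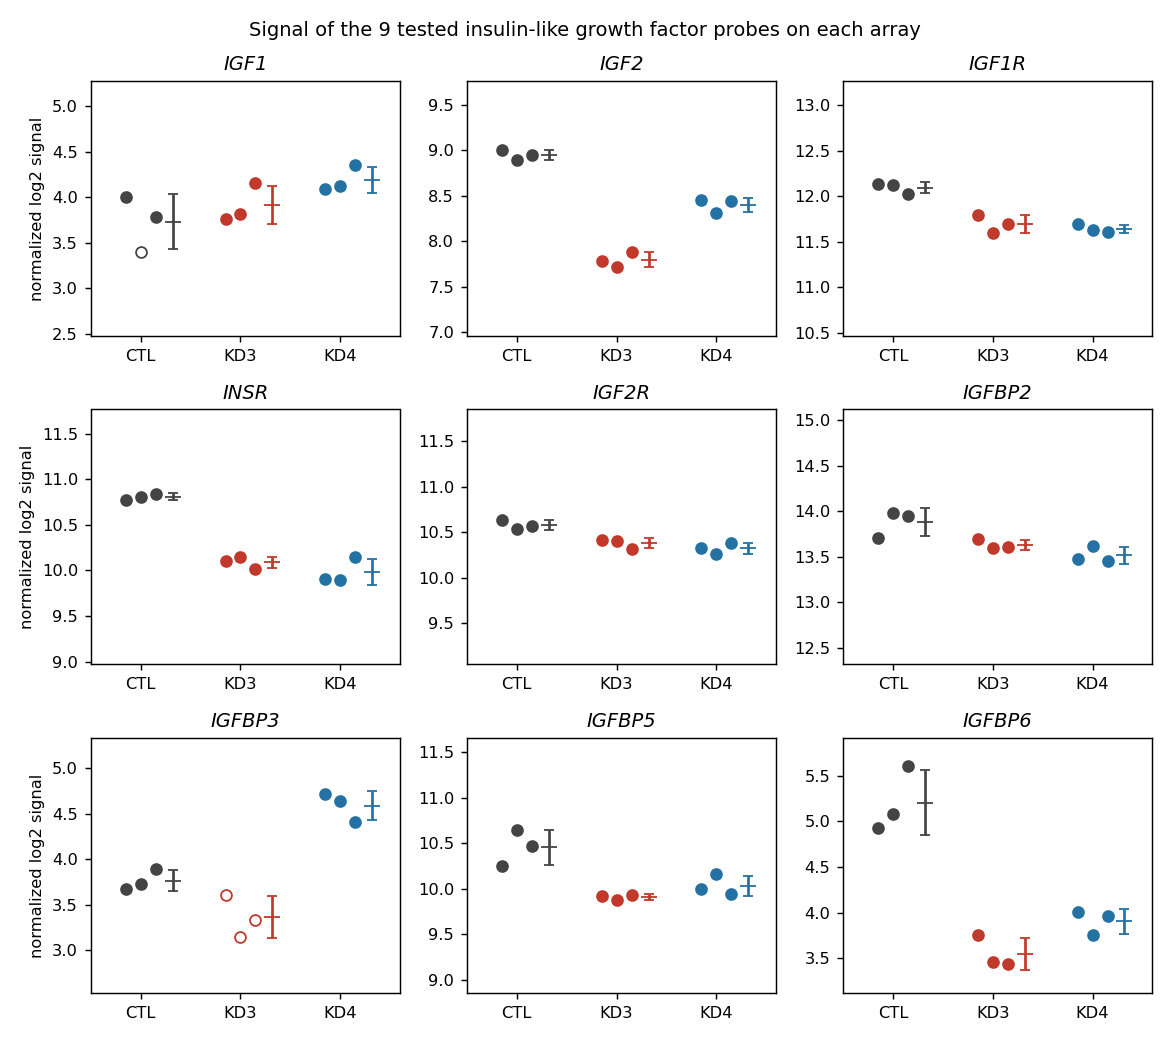
Each panel plots the normalized log2 signal of 1 tested probe on the 9 arrays, 1 point per array in the order of replicates 1 to 3 for CTL, KD3 and KD4, with the group mean and SD (n = 3) beside the points; open points were not well above background, and the vertical range has the same width in every panel. The 3 groups of IGF2 lie apart from each other with KD3 lowest, IGFBP6 lies lower in both knock-downs, and IGFBP3 lies highest in KD4.

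Among the ligands, IGF2 fell in both knock-downs, and further in KD3. The tested probe of IGF2, printed once on the array, gave 9.00, 8.89 and 8.94 on the 3 CTL arrays, 7.79, 7.72 and 7.89 in KD3, and 8.45, 8.31 and 8.44 in KD4. The ranges of the 3 groups did not touch, in the order CTL, KD4, KD3, and each step of that order was larger than the range within any group. Against CTL the log2 fold change was -1.15 in KD3 (SE 0.07, limma adjusted p = 3.41e-05), which leaves 45.2% of the CTL signal. In KD4 it was -0.54 (SE 0.07, limma adjusted p = 0.0012), which leaves 68.6% and is short of the fold needed for a call. Within slide 1 and slide 2 the difference of KD3 from CTL was -1.19 and -1.16. Slide 1 held 1 KD3, 2 KD4 and 2 CTL arrays, and slide 2 held 2, 1 and 1. Within-slide differences here and below thus rest on 1 or 2 arrays per group. The RefSeq table also lists a read-through of INS into IGF2, and whether the probe detects it was not tested. A second IGF2 probe was well above background on 6 of its 18 spots, 2 in each group, with arrays from 2.50 to 3.69, and is given without a test.

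IGF1 did not pass the test in either comparison. Its tested probe, spotted 10 times per array, gave 4.01, 3.40 and 3.79 in CTL, 3.77, 3.82 and 4.15 in KD3, and 4.10, 4.12 and 4.35 in KD4. The KD3 arrays overlapped those of CTL, with KD3 replicate 3 above the highest of them, while all KD4 arrays lay above CTL. The fitted difference of IGF1 on the log2 scale was 0.18 in KD3 (95% confidence interval -0.20 to 0.56, limma adjusted p = 0.503) and 0.46 in KD4 (0.08 to 0.84, limma adjusted p = 0.0713). Without CTL replicate 1 the KD4 value was 0.59 and passed (limma adjusted p = 0.0342). Without CTL replicate 2 it was 0.29 and did not pass (limma adjusted p = 0.182). With the normexp correction given below it was 0.08 (limma adjusted p = 0.384). The tested probe was dim, with 18 of 25 usable spots well above background in CTL, 22 of 27 in KD3 and 27 of 28 in KD4. It was well above background on 2 of the 3 CTL arrays and was tested through the knock-down groups. The filter itself thus favors a higher value in the knock-downs. Within slides, the KD3 difference was 0.22 on slide 1 and -0.04 on slide 2, and the KD4 difference was 0.64 and 0.09. The other IGF1 probe was well above background on 1 of its 18 spots and ranged from 1.45 to 2.38.

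In the limma fit both signaling receptors fell in both knock-downs, each by less than the 1.8-fold needed for a call. INSR, the insulin receptor, gave 10.77, 10.81 and 10.85 in CTL, 10.11, 10.14 and 10.02 in KD3, and 9.90, 9.89 and 10.15 in KD4. No knock-down array reached the lowest CTL array. For INSR the fitted log2 fold change was -0.72 in KD3 (SE 0.08, limma adjusted p = 0.000739) and -0.83 in KD4 (SE 0.08, limma adjusted p = 0.000285), the latter a 1.77-fold decrease. Without KD4 replicate 3, the highest of its group, the KD4 value was -0.91 and passed the fold for a call. With the methods' t-test and adjustment the adjusted p of INSR was 0.0369 in KD3 and 0.0671 in KD4.

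IGF1R, the main receptor for both ligands, gave 12.14, 12.13 and 12.03 in CTL, 11.79, 11.60 and 11.70 in KD3, and 11.69, 11.63 and 11.60 in KD4. All knock-down arrays of IGF1R lay below the lowest CTL array. IGF1R thus changed by a log2 fold of -0.40 in KD3 (SE 0.07, limma adjusted p = 0.00653) and -0.45 in KD4 (SE 0.07, limma adjusted p = 0.00266), leaving 75.9% and 73.1% of the control signal. With the methods' t-test and adjustment the adjusted p of IGF1R was 0.0931 in KD3 and 0.0293 in KD4. IGF2R, the clearance receptor, gave 10.64, 10.53 and 10.57 in CTL, 10.42, 10.41 and 10.32 in KD3, and 10.33, 10.26 and 10.39 in KD4. Here too all knock-down arrays lay below CTL, but the log2 fold change of -0.20 in KD3 did not pass (limma adjusted p = 0.0755), and that of -0.26 in KD4 did (limma adjusted p = 0.0236). The KD4 value no longer passed when any of KD4 replicates 1 and 2 or CTL replicates 1 and 3 was left out (limma adjusted p from 0.0534 to 0.0852) or with the replicate number as a block (limma adjusted p = 0.0505). IGF1R, INSR and IGF2R were each spotted 2 times per array, and the SD between the 2 spots was at most 0.13.

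**Figure D2:**
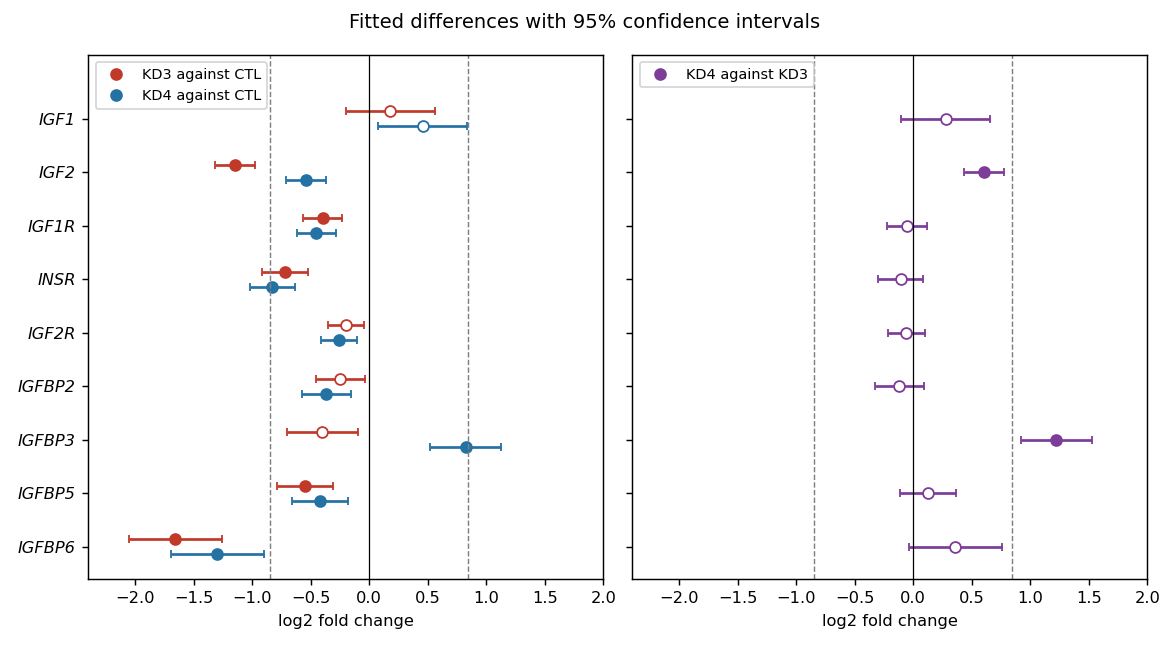
Fitted log2 fold changes of the 9 tested members, KD3 and KD4 against CTL on the left and KD4 against KD3 on the right, with 95% confidence intervals; filled points had a limma adjusted p under 0.05, and dashed lines mark the 1.8-fold threshold. IGF2 in KD3 and IGFBP6 in both knock-downs lie beyond the lower line, and IGFBP3 lies beyond the upper line between the knock-downs.

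The binding proteins moved in different directions. IGFBP6, which binds IGF2 in preference to IGF1, had a larger decrease than the other members on the quantile normalized scale, but not with the normexp correction given below. It gave 4.93, 5.09 and 5.60 in CTL, 3.75, 3.46 and 3.43 in KD3, and 4.01, 3.75 and 3.96 in KD4. The lowest CTL array lay above every knock-down array. Fitted to IGFBP6, the log2 fold change was -1.66 in KD3 (SE 0.17, limma adjusted p = 0.000411) and -1.30 in KD4 (SE 0.17, limma adjusted p = 0.00107), leaving 31.7% and 40.6% of the control signal. The within-slide differences were -1.89 and -1.34 for KD3 and -1.49 and -0.92 for KD4.

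IGFBP6 was dim, and its depth of signal limits the size of the change. The probe is spotted 2 times per array, and 6 of 6 spots were well above background in CTL, 3 of 6 in KD3 and 4 of 6 in KD4. On KD3 replicate 1 the 2 spots were 4.43 and 3.07, and the SD between spots of an array reached 0.97. With the normexp background correction, which draws dim signals together, the log2 fold change was -0.42 in KD3 (limma adjusted p = 0.00113) and -0.36 in KD4 (limma adjusted p = 0.00249), under the fold for a call and smaller than those of IGF2 (-0.94 and -0.46) and INSR (-0.72 and -0.77) with the same correction. When the methods' t-test was adjusted by Benjamini-Hochberg, its p was 0.0895 in KD3 and 0.0916 in KD4.

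IGFBP3, the main carrier of IGFs in serum, rose in KD4. It gave 3.67, 3.73 and 3.89 in CTL, 3.61, 3.15 and 3.34 in KD3, and 4.72, 4.64 and 4.41 in KD4. All KD4 arrays lay above CTL and all KD3 arrays below it. In KD4 the log2 fold change was 0.82 (SE 0.13, limma adjusted p = 0.00244), a 1.77-fold increase that missed the fold for a call. It passed that fold with scaling to the 75th percentile (1.00), without KD4 replicate 3 (0.91) and without CTL replicate 3 (0.89), and with the normexp correction it was 0.18 (limma adjusted p = 0.0481). In KD3, where no array was well above background, IGFBP3 was lower than in CTL by a fitted 1.32-fold and did not pass (limma adjusted p = 0.0659). The unadjusted confidence interval of this KD3 difference was -0.70 to -0.10 on the log2 scale. The limma adjusted p of that comparison was 0.0261 without KD3 replicate 1 and 0.0267 with scaling to the 75th percentile, and with normexp it was 0.617. IGFBP3 was spotted 10 times per array, and 18 of 29 usable spots were well above background in CTL, 10 of 29 in KD3 and 30 of 30 in KD4. Under the rule that at least 50% of a probe's spots must be well above background, it was measured on all CTL and KD4 arrays and on no KD3 array.

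**Figure D3:**
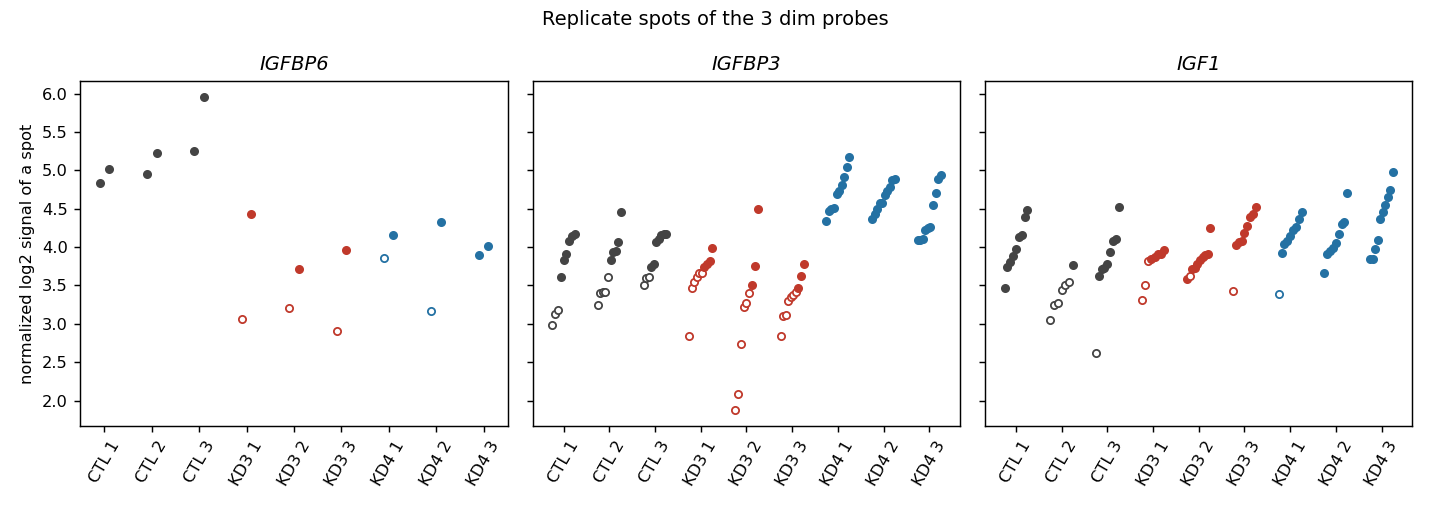
Normalized log2 signal of every usable spot of the IGFBP6, IGFBP3 and IGF1 probes on each array, spots of an array ordered by signal; filled points were well above background and open points were not. For IGFBP3 all 30 KD4 spots are filled and most KD3 spots are open, while the 2 spots of IGFBP6 on KD3 replicate 1 lie at 4.43 and 3.07.

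Of the brighter binding proteins, IGFBP5 fell in both knock-downs. IGFBP5, which also binds extracellular matrix, gave 10.25, 10.64 and 10.48 in CTL, 9.92, 9.87 and 9.93 in KD3, and 10.00, 10.16 and 9.94 in KD4. CTL varied more than either knock-down, with an SD of 0.19, and still lay above both. For IGFBP5 the log2 fold change came to -0.55 in KD3 (SE 0.11, limma adjusted p = 0.00779) and -0.42 in KD4 (SE 0.11, limma adjusted p = 0.0182). The KD4 value of IGFBP5 did not pass when replicate 1 or 3 of KD4 or replicate 3 of CTL was left out (limma adjusted p from 0.0535 to 0.0656). Within slides the difference was -0.68 and -0.33 in KD3, and -0.51 and -0.25 in KD4. With the methods' t-test and adjustment IGFBP5 passed in neither knock-down (adjusted p = 0.187 in KD3 and 0.154 in KD4).

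IGFBP2, abundant in fetal tissues, gave 13.70, 13.98 and 13.95 in CTL, 13.69, 13.59 and 13.61 in KD3, and 13.47, 13.62 and 13.45 in KD4. CTL replicate 1 lay close to the highest KD3 array, 13.70 against 13.69. For IGFBP2 the log2 fold change came to -0.25 in KD3 (limma adjusted p = 0.0952) and -0.37 in KD4 (limma adjusted p = 0.0185). Without CTL replicate 1 the KD3 value was -0.34 and passed (limma adjusted p = 0.0282), while the KD4 value did not pass without KD4 replicate 1 or 3 or without CTL replicate 2 or 3 (limma adjusted p from 0.0564 to 0.0651). On slide 2, which holds that CTL array, the KD3 difference was -0.05, against -0.37 on slide 1. Its 10 spots per array differed by an SD of at most 0.11. IGFBP4, which mostly restrains IGF action, had signals from 1.23 to 1.98 in CTL, from 1.21 to 1.46 in KD3 and from 1.18 to 1.51 in KD4, with 0 of 18 spots well above background, and was not tested.

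The hairpins were then compared directly, KD4 against KD3. IGFBP3 was the 1 member called between them, where 0.443% of all tested probes were called and 0.204% higher in KD4. By the adjusted p alone, IGFBP3 and IGF2 were higher in KD4, 2 of 9 members, where 0.948% of all tested probes were. Of the 16082 tested genes, 0.547% were called between the hairpins and 3.25% passed the adjusted p alone, in either direction. IGFBP3 was higher in KD4 by 1.22 on the log2 scale (SE 0.13, limma adjusted p = 0.00468). This is a fitted 2.34-fold difference, with an unadjusted confidence interval of 0.92 to 1.52 on the log2 scale. No KD3 array was well above background. On each KD3 array a floor was set, the lowest signal of any probe well above background (2.25 to 2.47). The IGFBP3 signal lay above this floor, so that the floor gave no separate lower bound on the fold. Within slides the difference was 1.38 and 1.24. With the normexp correction it was 0.24 (limma adjusted p = 0.0611), and with the methods' t-test and adjustment the adjusted p was 0.166.

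IGF2 was higher in KD4 than in KD3 by 0.60 (SE 0.07, limma adjusted p = 0.00779), a 1.52-fold difference. The difference kept its direction within each slide (0.65 and 0.62), and with the methods' t-test its adjusted p was 0.131. SMCHD1 RNA itself was lower in KD4 than in KD3 by a log2 difference of -0.56 on its brightest probe (limma adjusted p = 0.0195). With 1 hairpin per group, a relation between the SMCHD1 and IGF2 signals was not tested.

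The other members did not pass the test between the hairpins, which does not show that they were equal. For IGFBP6 the difference was 0.36 (95% confidence interval -0.04 to 0.76), with the KD4 arrays all above those of KD3. For IGFBP5 it was 0.13 (-0.11 to 0.37), again without overlap. The intervals of IGF1R (-0.22 to 0.11), INSR (-0.30 to 0.09), IGF2R (-0.21 to 0.10) and IGFBP2 (-0.33 to 0.09) leave out a difference of 1.8-fold in either direction, and so does that of IGF1 (-0.10 to 0.65). In all, 4 of the 9 members had no overlap between the 2 knock-downs, where 29.0% of all tested probes had none.

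The rest of the pathway was read from 8 lists, on the brightest tested probe of each gene, where 4.43% of 16082 genes were called in KD3 and 5.59% in KD4 and 25.2% and 34.5% passed the adjusted p alone. Counts at an unadjusted p under 0.05 are given below without a share over all tested genes. That share cannot be smaller than the one by the adjusted p, so these counts alone do not set a list apart. Among other binding proteins, IGFBP7 fell in both knock-downs. IGFBP7, a secreted relative with low affinity for IGFs, gave 9.38, 9.79 and 10.17 in CTL, 7.14, 6.87 and 6.57 in KD3, and 7.64, 7.71 and 7.60 in KD4. The groups were far apart, at a log2 fold change from CTL of -2.92 in KD3 (SE 0.20, limma adjusted p = 4.82e-05) and -2.13 in KD4 (SE 0.20, limma adjusted p = 0.000194), the latter no call with the methods' t-test and adjustment (adjusted p = 0.0781). IGFBPL1 was lower in KD3 (-0.59, limma adjusted p = 0.0129) while in KD4 it gave 0.13 (limma adjusted p = 0.473), and KD4 lay above KD3 by 0.72 (limma adjusted p = 0.0276). IGFALS, the acid-labile subunit of the serum complex, passed in neither. IGFBP1 was not measured well enough to be tested.

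Of 7 tested proteases of the binding proteins and their inhibitors, 1 was called lower in each knock-down, a different gene in each. HTRA1, a secreted serine protease that cleaves IGFBP5, fell in KD4, from 9.86, 10.20 and 10.64 in CTL to 9.04, 9.12 and 9.16 (log2 fold change -1.12, SE 0.17, limma adjusted p = 0.00175). In KD3 it gave 10.08, 10.03 and 9.92, inside the range of CTL, and KD4 was lower than KD3 by a log2 difference of -0.90 (limma adjusted p = 0.0315). STC1, an inhibitor of the IGFBP protease PAPPA, gave 4.42, 4.06 and 3.85 in CTL and 2.34, 2.94 and 3.05 in KD3, where no array was well above background. Its fitted log2 fold change in KD3 was -1.33 (SE 0.20, limma adjusted p = 0.00263). The probe was tested only because all CTL arrays were well above background, so that the filter itself favors a lower value in the knock-downs. In KD4 STC1 was well above background on 1 array, with 3.58, 3.74 and 3.48 (log2 fold change -0.51, limma adjusted p = 0.0955). Its relative STC2 passed in KD4 (-0.60, limma adjusted p = 0.00228), as did ADAM12 in the other direction in both (0.35 and 0.59, limma adjusted p = 0.0469 and 0.00387), but not on its other tested probe (-0.10 and 0.13, limma adjusted p = 0.69 and 0.563). The call of STC1 was not met with the normexp correction (-0.23, limma adjusted p = 0.0244) or with the methods' t-test and adjustment (adjusted p = 0.109), and its probe is too dim for the stricter filter. With the methods' t-test and adjustment HTRA1 was not called in KD4 either (adjusted p = 0.138).

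Downstream of the receptors, few genes were called. Of 10 tested receptor substrates and adaptors, 0 were called in either knock-down on their brightest probes. The adjusted p of limma alone was passed by 2 lower genes in KD3, and by 5 lower and 1 higher in KD4, and an unadjusted p under 0.05 by 5 lower and 2 higher genes in KD3, and 6 lower and 2 higher in KD4. IRS1, a docking protein of both receptors, was lower in both (-0.50 and -0.49, limma adjusted p = 0.0295 and 0.0247), and its other tested probe was past the threshold for a call in both (-1.14 and -1.14, limma adjusted p = 0.00224 and 0.0017). GRB10, an imprinted adaptor that inhibits the receptors, was lower on its brightest probe (-0.33 and -0.35, limma adjusted p = 0.0492 and 0.0318) and not on its other one (0.01 and 0.09, limma adjusted p = 0.931 and 0.427). The median of this list was -0.16 in KD3 and -0.25 in KD4, beside -0.01 and 0.00 over all tested genes. In the PI3K, AKT and mTOR list, all 26 genes were tested. By the adjusted p, 6 were lower and 2 higher in KD3, and 6 lower and 5 higher in KD4, with a median of -0.03 and -0.05. DEPTOR, an inhibitor bound to mTOR, was the only gene called there. DEPTOR gave 9.68, 10.00 and 9.83 in CTL, 9.41, 9.25 and 9.16 in KD3, and 8.70, 8.86 and 8.83 in KD4. DEPTOR thus fell, with log2 fold changes of -0.56 in KD3 (SE 0.10, limma adjusted p = 0.00593) and -1.04 in KD4 (SE 0.10, limma adjusted p = 0.000235). In the RAS and MAP kinase list 0 of 12 genes were called. By the adjusted p of limma 1 gene was higher in KD3 and 2 in KD4, and by an unadjusted p under 0.05, 3 were higher and 1 lower in KD3 and 4 higher in KD4.

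**Figure D4:**
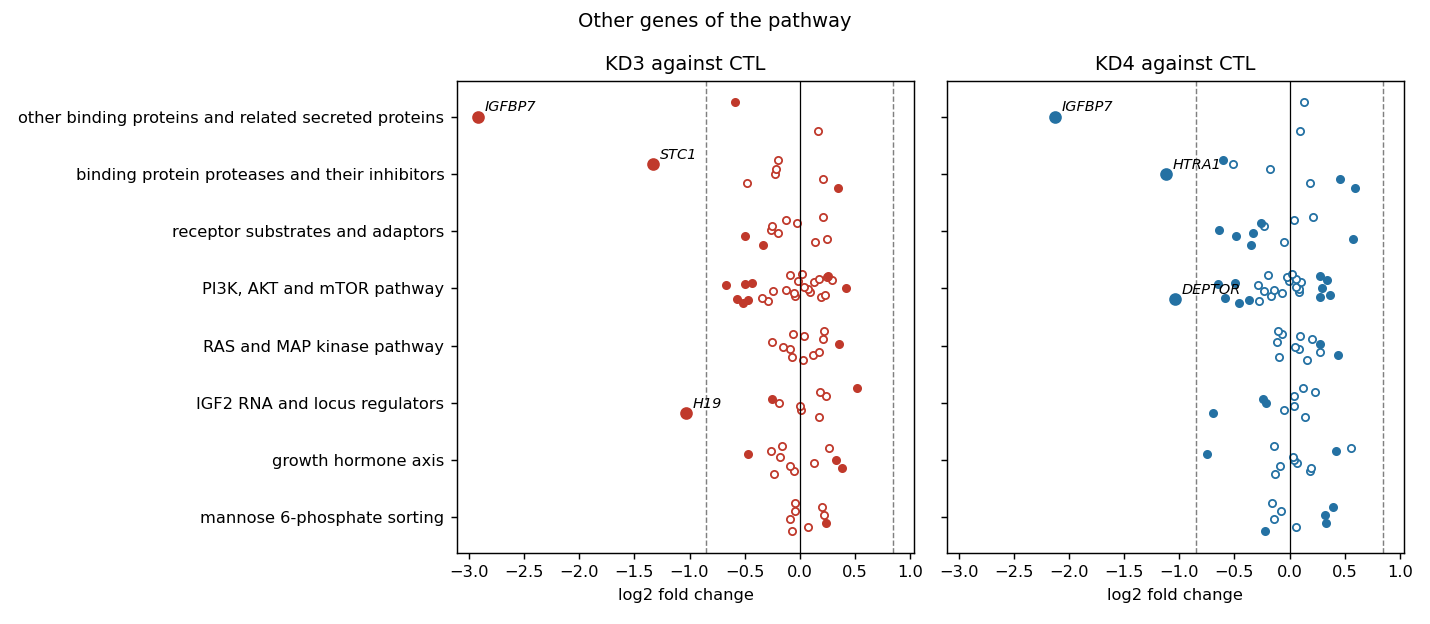
Log2 fold change of each tested gene of the 8 pathway lists in KD3 (left) and KD4 (right), 1 point per gene on its brightest tested probe; filled points had a limma adjusted p under 0.05, dashed lines mark the 1.8-fold threshold, and called genes are larger and named. Most genes lie between the lines, with IGFBP7 farthest out in both panels at -2.92 and -2.13.

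Around the IGF2 locus, H19, the imprinted non-coding RNA next to IGF2, was lower together with it in KD3. H19 gave 4.76, 4.27 and 4.49 in CTL, 3.28, 3.26 and 3.88 in KD3, and 3.93, 3.78 and 3.73 in KD4, a dim probe that was well above background on 2 of the 3 KD3 arrays and on all others. Its log2 fold change was -1.04 in KD3 (SE 0.18, limma adjusted p = 0.00539), a call, and -0.70 in KD4 (limma adjusted p = 0.0226), under the fold. With the normexp correction H19 had -0.20 in KD3 (limma adjusted p = 0.0598) and with the methods' t-test an adjusted p of 0.136, both no call, and its probe was not tested under the stricter filter. In KD4 H19 did not pass with normexp (limma adjusted p = 0.24), 75th percentile scaling (limma adjusted p = 0.106) or the methods' t-test and adjustment (adjusted p = 0.119). Nor did it pass there without KD4 replicate 2 or 3 or without CTL replicate 1 or 3 (limma adjusted p from 0.0591 to 0.0708). Of the other 8 genes of that list, which hold the IGF2 RNA binding proteins and the regulators PLAG1, HMGA2, CTCF and LIN28B, 0 were called in the limma fit on their brightest probes, and over the whole list an unadjusted p under 0.05 was reached by 3 higher and 3 lower genes in KD3 and by 1 higher and 3 lower in KD4. The 3 tested probes of HMGA2 disagreed. The brightest gave 0.01 and -0.05 and another -0.18 and -0.09, while the remaining one was higher at 0.79 in KD3 (limma adjusted p = 0.000402) and 1.19 in KD4 (limma adjusted p = 4.07e-05), past the fold in KD4. PLAG1, an activator of the IGF2 promoters, was higher in KD3 (0.52, limma adjusted p = 0.00116), gave 0.12 in KD4 (limma adjusted p = 0.22), and lay lower in KD4 than in KD3 by a log2 difference of -0.40 (limma adjusted p = 0.0233). IGF2BP3, which binds IGF2 RNA, was lower in both (-0.25 and -0.24, limma adjusted p = 0.0444 and 0.0396). INS, on the other side of IGF2, gave a log2 fold change of 0.24 and 0.04 and passed in neither.

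In the growth hormone list, whose axis drives IGF1 in liver, 0 of 11 tested genes were called by limma. SOCS2, a feedback inhibitor of growth hormone signaling, was lower by the adjusted p in both knock-downs (-0.47 and -0.75, limma adjusted p = 0.00443 and 0.000327), and 2 genes were higher in KD3 and 1 in KD4. An unadjusted p under 0.05 was reached by 2 higher and 3 lower genes in KD3 and by 1 in each direction in KD4. In the mannose 6-phosphate list, the sorting route that IGF2R serves, 0 of 8 genes were called by limma, with 1 higher by the adjusted p in KD3 and 3 higher and 1 lower in KD4, and with 3 higher by an unadjusted p under 0.05 in KD3 and 3 higher and 1 lower in KD4. M6PR, the other receptor of that route, had log2 fold changes of -0.04 and -0.08 that did not pass.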

How the data were processed

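For each array, the authors deposited the scanner's spot intensity values, read with Agilent Feature Extraction 10.10 per the submitters' processing notes, in which the green processed signal was already background-subtracted. The authors also deposited log2 values, quantile normalized in GeneSpring, which served as an alternative; the methods write quintile. The array design uses hg19, so that no coordinates of probes are given.

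Here, control spots and outlier spots (260 to 634 of 58717 per array) were left out, log2 signals were normalized by quantiles (limma 3.58.1, R 4.3.3), and spots of a probe were averaged. A probe counted as well above background on an array where at least 50% of its usable spots did, by the scanner's flag. Probes were tested where this held on every array of at least 1 group (32276 of 42405; 21 lacked a value). Replicate arrays correlated at 0.995 or more. Genes were named through RefSeq accessions (25422 probes). All 9 arrays entered a single fit (lmFit and eBayes, a mean per group), checked on simulated data; limma replaced the t-test of the methods. Named genes were all 10 members, every list gene called in a knock-down, and the 3 probes most like each called member; all other named genes were chosen after their values were seen, and a few genes are not reported here. The members and lists were chosen with earlier results of these data known. The alternatives tried were 75th percentile scaling, normexp (offset 50), the deposited log2 values, no filter or a mean log2 signal of at least 6, the t-test of the methods, adjusted or not, 2 groups fitted alone, a block for the replicate number or for the slide, no fold threshold, and each array left out in turn.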

Additional observations from a re-analysis of the deposited data

Results flagged for a closer look

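In 2 members the effect of the knock-down differed between the hairpins in the direct limma contrast of KD4 with KD3. IGF2 was lower than CTL with both hairpins, and its signal in KD4 exceeded that in KD3 by 0.60 on the log2 scale (adjusted p = 0.00779), with all 3 KD4 arrays above all 3 KD3 arrays. IGFBP3 lay above CTL in KD4 and below CTL in KD3, and KD4 exceeded KD3 by 1.22 on the log2 scale (adjusted p = 0.00468), again on 3 of 3 arrays, with a KD3 signal well above background on 0 of 3 arrays. No test was made of what sets the hairpins apart.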

How the results depend on the processing

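None of the 9 members changed direction in any fit tried. Of the single log2 fold changes refitted, 494 stayed on their side of the call threshold, 4 came to pass it and 6 no longer did. IGF2 in KD3 was called under every alternative, while the calls of IGFBP6 and IGFBP3, the dim probes, were not. Members called numbered 2 for KD3, 1 for KD4 and 1 for KD4 against KD3. With normexp it was 1, 0 and 0 by limma, with the stricter filter on dim probes, which removes IGF1, IGFBP3 and IGFBP6, 1, 0 and 0, with the methods' t-test and adjustment 1, 0 and 0, and without a fold threshold 5, 8 and 2. Scaling to the 75th percentile called 2 in KD4, with IGFBP3. Leaving out each array gave 2 to 2, 1 to 3 and 1 to 1; the 3 came without KD4 replicate 3 (IGFBP6, INSR and IGFBP3) and 2 without CTL replicate 3. Normexp and the stricter filter each left 1 of the 3 pathway genes called in KD3, IGFBP7, without H19 and STC1. Over all probes, normexp called 382, 500 and 37 against 1072, 1486 and 143, and the t-test with adjustment 259, 585 and 0 (199 without adjustment); without a fold threshold limma called 6459, 9138 and 797. Same-numbered arrays did not pair (correlations of deviations from -0.08 to 0.14). The replicate block gave 2, 1 and 1 members called, and 6 in place of 7 lower in KD4 by the adjusted p. The alternative of only the brightest probe equals the main result, since each member has 1 tested probe. The causes were not tested.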

Other observations

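The probes whose signals over the 9 arrays, as differences from their own CTL mean, lay closest to those of a called member were found by the root mean square difference. For IGF2 these were WNT6 (0.10 on the log2 scale), GPRIN1 (0.11) and NEURL1B (0.11), with log2 fold changes from -1.10 to -1.05 in KD3 and from -0.63 to -0.52 in KD4. For IGFBP6 they included the potassium channel gene KCNQ1 (0.11) and the adrenergic receptor gene ADRA1B (0.13), which differed from CTL by -1.50 and -1.58 on the log2 scale in KD3 and by -1.32 and -1.35 in KD4. All of these were well above background on all 9 arrays.

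The nearest tested gene on either side of each member, in the gene order of GRCh38.p14, gave 18 genes that are no members, read on their brightest probes. Of these, 3 were called in KD3 and 2 in KD4, where 4.43% and 5.59% of all tested genes were, and the called ones are named after their values were seen. On the H19 side of IGF2 the rule, which takes the nearest annotated gene end, picked MRPL23, whose span in that annotation includes H19, so that H19 is not among the 18. DIRC3, next to IGFBP5 on chromosome 2, changed by a log2 fold of -2.23 in KD3 (limma adjusted p = 0.000344) and -2.59 in KD4 (limma adjusted p = 0.000132). ARRDC4, next to IGF1R on chromosome 15, had -0.91 and -1.22 (limma adjusted p = 0.00325 and 0.000596). PMCH, next to IGF1 on chromosome 12, had 0.94 in KD3 (limma adjusted p = 0.0209) and 0.56 in KD4 (limma adjusted p = 0.101). SOAT2, next to IGFBP6, was lower by -0.55 and -0.69 (limma adjusted p = 0.00739 and 0.00179), under the fold for a call, and SPRYD3 on its other side passed in neither. IGFBP2 and IGFBP5 are neighbours on chromosome 2.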
